A study of Homo sapiens with 8 samples.

Results

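Genes for 8 ATP-binding cassette (ABC) drug efflux transporters, ABCB1, ABCC1, ABCC2, ABCC3, ABCC4, ABCC5, ABCC10 and ABCG2, were examined for peaks of 2 histone marks in parental and 5-fluorouracil (5-FU)-resistant colon cancer cells. They were chosen by name from 20163 protein-coding genes as the transporters known for moving anticancer drugs out of cells. The assay was CUT&Tag, in which a transposase tethered to an antibody cuts DNA beside the marked nucleosomes, for histone H3 lysine 23 succinylation (H3K23su) and lysine 27 acetylation (H3K27ac). HCT15 is an established line of human colorectal cancer cells. The parental cells, HCT15-Pa, were labelled as treated with DMSO, and the resistant cells, HCT15-FR, as treated with 5-FU at 20 μg/mL. There were 2 replicates of each line for each mark, so 4 libraries per mark and 8 in all, and the sources do not say that replicates came from separate cultures, so p-values measure only the spread between these libraries. Per the study's methods the resistant cells were grown with 5-FU, then kept without the drug for some days ahead of experiments, and the parental cells were grown beside them without it. One resistant line was compared with its parent, and earlier 5-FU exposure and resistance were not separated.

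ABC transporters use ATP to carry substrates across membranes. ABCB1 (P-glycoprotein, MDR1) and ABCG2 (BCRP) expel many lipophilic drugs, whereas the ABCC proteins (the multidrug resistance-associated proteins) carry mainly organic anions, conjugates and, for ABCC4 and ABCC5, nucleotide analogues. ABCC5 exports monophosphate metabolites of fluoropyrimidines such as 5-FU. H3K27ac marks active promoters and enhancers, and H3K23su is an acylation of the same histone tail. A peak states that the mark was enriched at a site, and it measures neither RNA nor transport. In a bulk assay, fewer cells carrying a mark and less of the mark in each cell cannot be told apart.

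The lists held 65364 to 68365 peaks per library for H3K23su and 70600 to 76676 for H3K27ac. HCT15-FR lists covered more of the genome, 39.4 to 40.0 Mb against 33.0 to 33.5 Mb in HCT15-Pa for H3K23su and 46.3 to 46.6 Mb against 38.8 to 39.5 Mb for H3K27ac. Among markers of colon epithelium, 6 of 11 promoters carried an H3K23su peak and 8 of 11 an H3K27ac peak in all 4 libraries, and all 11 had a peak of each mark in at least 1 library, whereas 7 of 8 fibroblast markers had none of either. The epithelial markers CDX1 (both marks), CDH17 (H3K23su) and KRT20 (H3K27ac) were FR-only there. A peak is called FR-only where each HCT15-FR library has it and no HCT15-Pa library does, and Pa-only in the reverse case. Sequencing depth is not in the peak lists and read numbers were not used here, so no counting interval is given. The score of a peak is its −log10 P, which grows with depth, so scores were also ranked within their own list and given as a percentile, 100 being the strongest.

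The promoters of 6 of the 8 genes were in the RefSeq table (build GRCh38.p14) and were located in GRCh37 (hg19) by exact match. ABCC1 and ABCC3 had no entry. In the 300 bases from 250 before to 50 after the start, ABCC2 held 1 CpG, the others between 16 (ABCB1) and 47 (ABCC4), against a median of 14 over 35116 promoters. These 3 are shown because ABCB1 had the strongest H3K23su peak among the 8 promoters, ABCC2 was the one that lacked peaks in HCT15-FR, and ABCG2 had the H3K27ac promoter peak that differed most in length between the lines. Capitals mark a CCAAT box (CCAAT) or a GC box (GGGCGG) on either strand, and no such pair overlapped in these windows. Of all promoters, 34.6% held the first and 45.0% the second.
ABCB1, chr7:87230151-87230450, minus strand: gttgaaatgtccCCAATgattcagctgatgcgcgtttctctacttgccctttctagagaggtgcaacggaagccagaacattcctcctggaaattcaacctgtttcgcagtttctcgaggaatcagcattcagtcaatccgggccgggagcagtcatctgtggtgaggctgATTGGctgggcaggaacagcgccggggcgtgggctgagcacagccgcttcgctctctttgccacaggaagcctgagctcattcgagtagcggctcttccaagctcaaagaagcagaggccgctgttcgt
ABCC2, chr10:101542147-101542446, plus strand: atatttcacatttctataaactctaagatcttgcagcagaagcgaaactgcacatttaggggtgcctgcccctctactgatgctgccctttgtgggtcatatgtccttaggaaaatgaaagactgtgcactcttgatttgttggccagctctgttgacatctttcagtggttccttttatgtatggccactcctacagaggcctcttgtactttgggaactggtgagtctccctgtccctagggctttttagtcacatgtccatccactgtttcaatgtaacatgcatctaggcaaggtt
ABCG2, chr4:89079742-89080041, minus strand: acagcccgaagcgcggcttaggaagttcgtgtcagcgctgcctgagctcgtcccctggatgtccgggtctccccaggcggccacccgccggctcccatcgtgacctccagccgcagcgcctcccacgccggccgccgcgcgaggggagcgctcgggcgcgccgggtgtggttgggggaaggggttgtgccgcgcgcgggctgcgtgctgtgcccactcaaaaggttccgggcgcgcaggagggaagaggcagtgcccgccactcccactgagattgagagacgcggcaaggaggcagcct
Where a gene had more than 1 RefSeq entry, the window was that of the entry nearest the canonical start. In these windows ABCB1 held 2 CCAAT boxes, and neither motif was in the ABCC2 or ABCG2 window. ABCG2 also had entries farther upstream. Those at 4:89079962-89080261 and 4:89080012-89080311 held 2 GC boxes each, and its remaining entries held neither motif.

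The first comparison asked whether the transporter promoters carried the marks in each line. Of the 8 genes, 7 had a peak within 2 kb of the canonical transcription start site (TSS) in all 4 libraries of each mark, which is 87.5%, against 54.7% of all protein-coding genes for H3K23su and 59.0% for H3K27ac. The exception was ABCC2, which was Pa-only in both marks, a class that held 1.72% of genes for H3K23su and 2.19% for H3K27ac. No transporter gene was FR-only at its TSS, against 1.86% and 1.42% of genes. In the stronger 50% of each list, 4 of the 8 kept an H3K23su peak in all 4 libraries and 6 an H3K27ac peak.

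**Figure D1:**
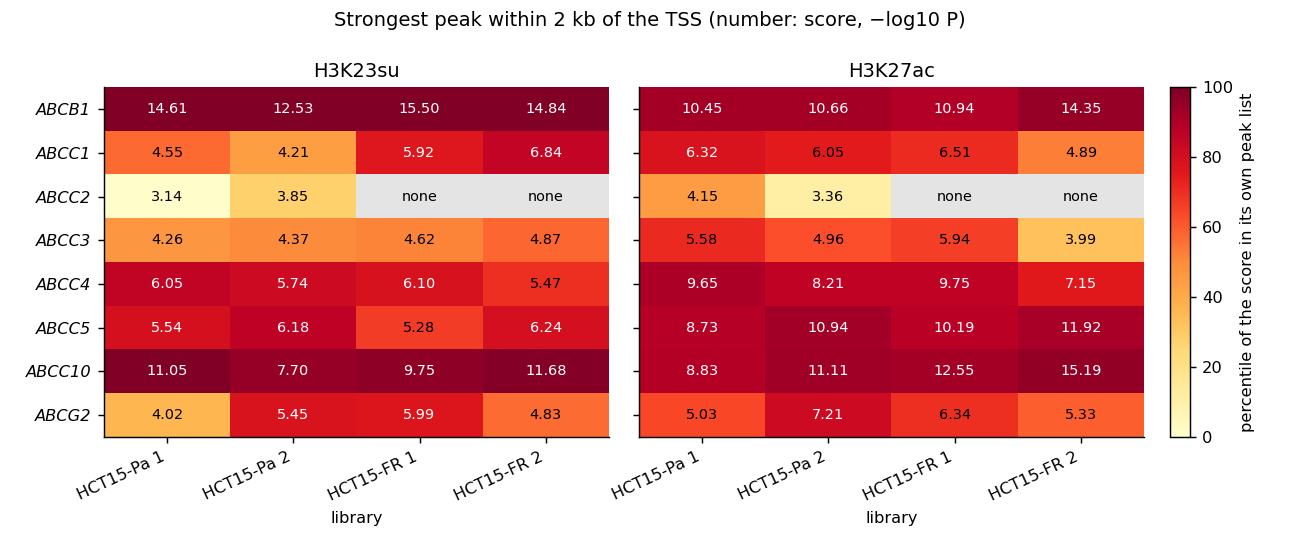
Strongest peak within 2 kb of the TSS of each transporter gene (rows) in each library (columns), for H3K23su (left) and H3K27ac (right); the number is the score (−log10 P), the colour its percentile in its own list, and grey marks no peak. ABCB1 scored 12.53 to 15.5 for H3K23su, and ABCC2 had no peak in the 4 HCT15-FR libraries.

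ABCB1, the best known multidrug efflux pump, carried the strongest of the H3K23su promoter peaks. For H3K27ac, ABCC10 scored higher than it in 3 of the 4 libraries. The H3K23su scores of ABCB1 were 14.61 and 12.53 in HCT15-Pa and 15.5 and 14.84 in HCT15-FR, at the 99.6 to 99.8 percentile of their lists. The H3K27ac scores were 10.45, 10.66, 10.94 and 14.35 in the same order, at the 89.3 to 95.0 percentile. The scores were higher in both HCT15-FR libraries in each mark, by as little as 14.84 against 14.61 for H3K23su, while the percentiles of the lines overlapped. H3K23su covered 0.801 and 0.83 kb of the 4 kb window in HCT15-Pa and 1.1 and 1.06 kb in HCT15-FR, in which a separate weak peak 1.33 kb into the gene was FR-only. With 2 libraries against 2, an exact permutation test cannot give a two-sided p below 0.333, so no single value was tested alone. The peaks lay at the canonical start (7:87230200), and the coding starts of ABCB1 112 kb upstream had no peak of either mark in any library.

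ABCC10 (MRP7), a pump for taxanes and other lipophilic drugs, came next. Its H3K23su scores were 11.05 and 7.7 in HCT15-Pa and 9.75 and 11.68 in HCT15-FR, at the 95.0 to 99.3 percentile, with the lines overlapping. Its H3K27ac scores, 8.83 and 11.11 in HCT15-Pa and 12.55 and 15.19 in HCT15-FR, did not overlap, but their percentiles did (88.7 and 93.1 against 92.3 and 95.8). ABCC5 and ABCC4, the nucleotide transporters, had H3K23su scores of 5.28 to 6.24 and 5.47 to 6.1. Their H3K27ac scores were 8.73 to 11.92 and 7.15 to 9.75, and the scores of the lines overlapped in each. By percentile, ABCC4 was lower in both HCT15-FR libraries for H3K23su (78.6 and 69.7, against 85.9 and 82.1 in HCT15-Pa). Its H3K27ac percentiles were 90.9 and 86.2 in HCT15-Pa and 86.2 and 75.6 in HCT15-FR. The percentiles of ABCC5 overlapped between the lines in each mark. The length covered by H3K23su at the ABCC4 TSS was 1.63 and 1.55 kb in HCT15-Pa and 1.93 and 2.01 kb in HCT15-FR.

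ABCC1 (MRP1), which exports glutathione conjugates, and ABCC3 (MRP3), which exports glucuronides and bile acids, had weaker promoter peaks. For ABCC1, the H3K23su scores were 4.55 and 4.21 in HCT15-Pa and 5.92 and 6.84 in HCT15-FR, at the 56.7 percentile and below in HCT15-Pa and the 76.5 and 85.2 percentile in HCT15-FR, and the lines did not overlap. Its H3K27ac scores of 6.32, 6.05, 6.51 and 4.89 overlapped. For ABCC3, H3K23su scored 4.26 and 4.37 in HCT15-Pa and 4.62 and 4.87 in HCT15-FR, and H3K27ac 5.58, 4.96, 5.94 and 3.99, so HCT15-FR was the higher line for the first mark and the lines overlapped for the second.

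ABCG2, the breast cancer resistance protein, had the largest line difference in H3K27ac length at a TSS among the 8. H3K27ac covered 0.372 and 0.515 kb in HCT15-Pa and 0.974 and 1.03 kb in HCT15-FR, a mean of 0.444 ± 0.101 kb against 1.0 ± 0.0403 kb (SD, n = 2). The scores did not follow, being 5.03 and 7.21 in HCT15-Pa and 6.34 and 5.33 in HCT15-FR. H3K23su covered 0.563 and 1.0 kb in HCT15-Pa and 0.816 and 0.813 kb in HCT15-FR, with the lines overlapping. Its coding starts 73.0 and 72.7 kb upstream carried no peak.

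ABCC2 (MRP2), an apical exporter of conjugated drugs whose promoter window is printed above with its single CpG, had weak and scattered promoter peaks. In HCT15-Pa the H3K23su peaks scored 3.14 and 3.85, at the 0.564 and 27.7 percentile of their lists, and the H3K27ac peaks 4.15 and 3.36, at the 44.7 and 11.3 percentile. The 2 strongest H3K23su peaks did not overlap, lying at 10:101543838-101544244 in 1 replicate and 10:101542283-101542476 in the other. No HCT15-FR library had a peak of either mark there. In the stronger 50% of each list ABCC2 had no TSS peak in any library, and with equal list lengths (H3K23su), a 1 kb window (both marks) or peak midpoints (H3K27ac) it was no longer Pa-only.

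The second comparison asked where in the transporter loci, the gene body and 50 kb either side, peaks were found in both libraries of 1 line only. Overlapping peaks of the 4 libraries of a mark were merged into regions. There were 201 H3K23su regions, of which 42 were shared by all 4 libraries, 24 were FR-only (11.9%, against 7.95% of regions in the whole genome) and 7 were Pa-only (3.48%, against 5.01%). Of 195 H3K27ac regions, 48 were shared, 24 were FR-only (12.3%, against 9.08%) and 12 were Pa-only (6.15%, against 4.53%). The rest were in 1 library or in other mixtures. Gene bodies held 21 of the 24 FR-only H3K23su regions, against 150 of all 201. For H3K27ac they held 20 of the 24, against 123 of all 195. FR-only regions were found in every locus in each mark. They were weak, the weaker peak of a region having a median percentile of 24.0 for H3K23su and 42.0 for H3K27ac, against 59.2 and 62.7 in shared regions. In the stronger 50% of each list, 4 of 100 H3K23su regions were FR-only (4.0%, against 7.54% in the whole genome), so the H3K23su share fell below that of the genome, and 14 of 86 H3K27ac regions were (16.3%, against 10.1%). The share of Pa-only regions also changed sides of the genome share, for H3K23su in the stronger 50% (5.0% against 4.8%), with HCT15-Pa replicate 1 or HCT15-FR replicate 1 left out and with 50% of a region covered, and for H3K27ac with HCT15-Pa replicate 2 left out and with 50% of a region covered.

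**Figure D2:**
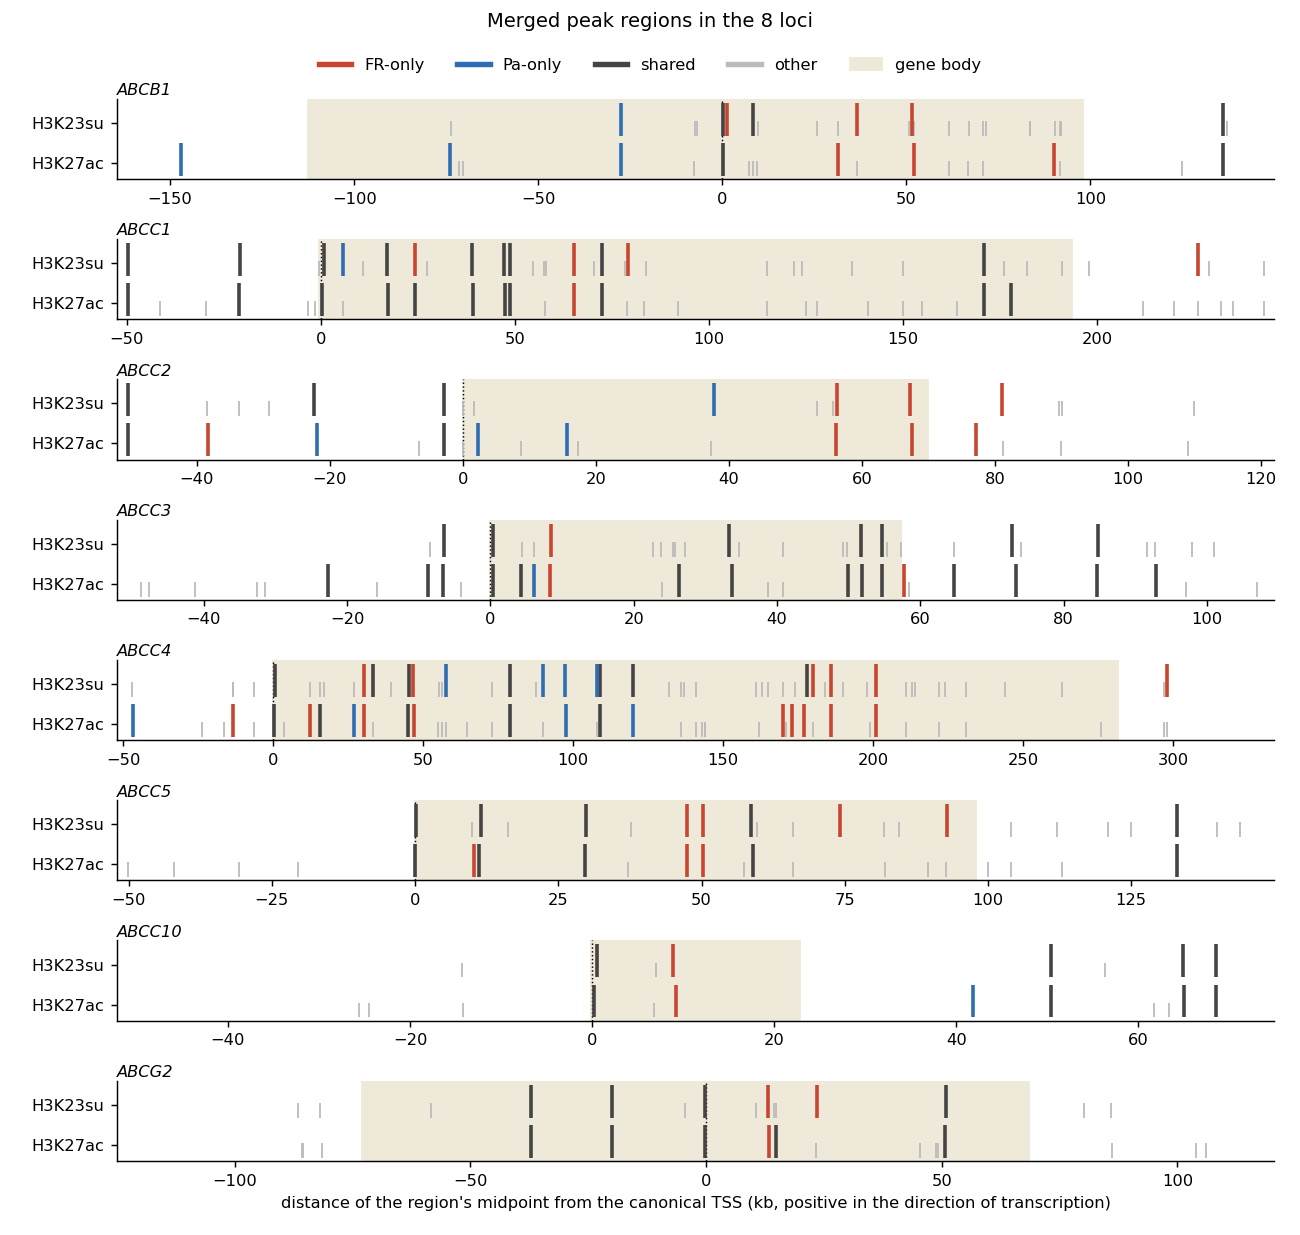
Merged peak regions in the 8 transporter loci by distance of their midpoints from the canonical TSS (kb), with H3K23su above and H3K27ac below in each panel; tall marks are regions in both libraries of 1 line only or in all 4 libraries, short grey marks are other regions, and shading is the gene body. FR-only regions (red) appear in all 8 loci. Gene bodies held 21 of 24 of them for H3K23su (150 of all 201 regions) and 20 of 24 for H3K27ac (123 of all 195).

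ABCC4 held the most, with 6 FR-only and 4 Pa-only of 52 H3K23su regions and 9 FR-only and 4 Pa-only of 45 H3K27ac regions. Chromosome 13, where it lies, had fewer FR-only regions than the genome (5.56% for H3K23su and 6.43% for H3K27ac) and more Pa-only regions (9.14% and 8.12%). ABCC5 had 4 FR-only of 22 H3K23su and 3 of 21 H3K27ac regions and no Pa-only region. ABCC2 had 3 and 4 FR-only regions for H3K23su and H3K27ac, 1 and 3 Pa-only. ABCB1 had 3 FR-only regions for each mark, and 1 and 3 Pa-only.

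H3K27ac was FR-only as well at 12 of the 24 FR-only H3K23su regions (50.0%), against 35.8% genome-wide. All 12 lay inside the gene body, as did 21 of the 24 FR-only H3K23su regions and 150 of all 201. The 12 were in 7 of the 8 genes: 4 in ABCC4, 2 each in ABCC2 and ABCC5, and 1 each in ABCC1, ABCC3, ABCC10 and ABCG2. ABCB1 had none. H3K27ac was Pa-only at 2 of the 7 Pa-only H3K23su regions (28.6%), against 19.8% genome-wide.

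**Figure D3:**
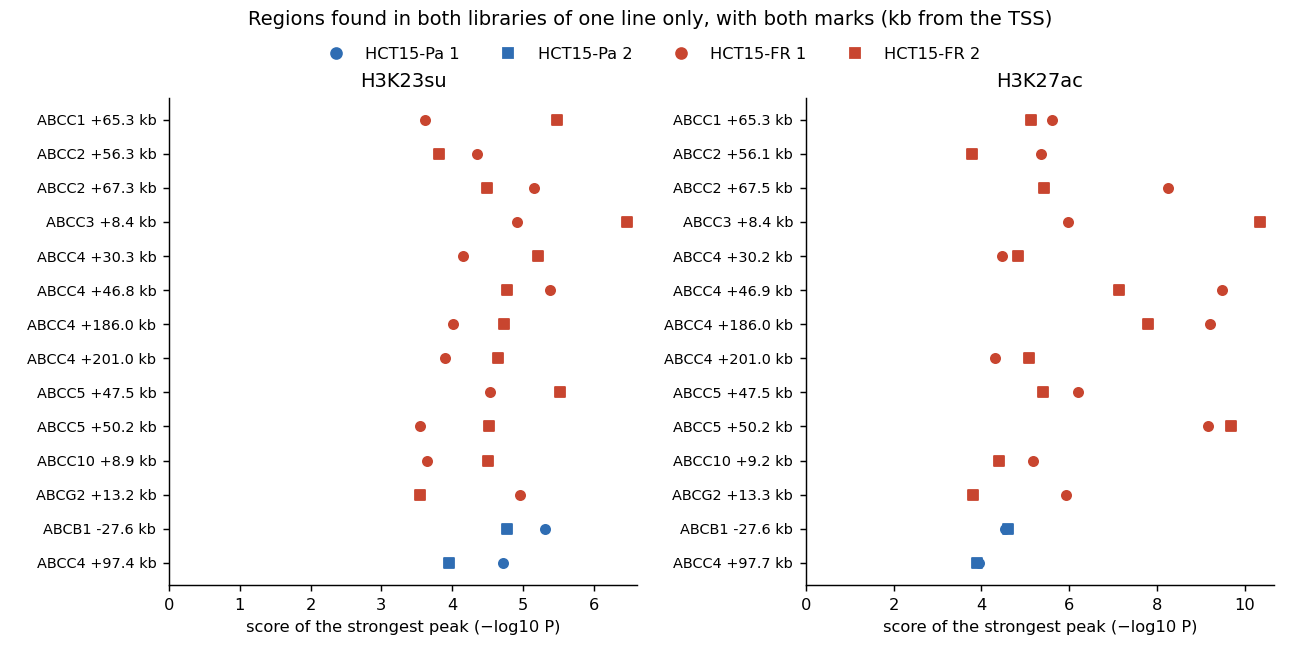
Score (−log10 P) of the strongest peak per library in the 14 regions found in both libraries of 1 line only with both marks, named by gene and distance from its TSS; circles are replicate 1 and squares replicate 2, and the other line has no point because it had no peak. The ABCC5 region 50.2 kb into the gene scored 9.17 and 9.69 for H3K27ac in HCT15-FR.

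In ABCC5, the fluoropyrimidine metabolite exporter, the region 50.2 kb into the gene overlapped an exon. Its H3K27ac part (3:183684919-183686038) scored 9.17 and 9.69 in HCT15-FR, at the 84.4 and 86.3 percentile. Its H3K23su part (3:183685190-183685800) scored 3.54 and 4.52, at the 11.2 and 48.3 percentile. Both HCT15-Pa libraries had no peak of either mark there. A neighbouring region 47.5 kb into the gene was also FR-only in both marks, with scores of 6.2 and 5.4 for H3K27ac and 4.53 and 5.53 for H3K23su. The FR-only H3K23su region whose weaker peak ranked highest among the 8 loci was in ABCC5 as well, 92.8 kb into the gene, with scores of 6.17 and 5.3.

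In ABCC4 the FR-only H3K27ac region with the highest rank lay 177 kb into the gene (13:95775720-95776761) and scored 12.71 and 14.02 in HCT15-FR, at the 92.5 and 94.6 percentile. HCT15-Pa had no H3K27ac peak there, while H3K23su had a peak in all 4 libraries. Of the ABCC4 regions that were FR-only in both marks, those 46.9 and 186 kb into the gene had the higher H3K27ac scores, 9.49 and 7.13, and 9.2 and 7.8. Those 30.2 and 201 kb into it scored 4.46 and 4.83, and 4.3 and 5.08. One ABCC4 region 97.4 kb into the gene was Pa-only in both marks, with scores between 3.9 and 4.72.

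In ABCC3 the region 8.4 kb into the gene (H3K27ac, 17:48720360-48720891) scored 5.97 and 10.34 for H3K27ac and 4.92 and 6.47 for H3K23su in HCT15-FR. The ABCC1 region 65.3 kb into its gene scored 5.62 and 5.13 for H3K27ac, and 3.62 and 5.48 for H3K23su. The ABCC10 region 8.91 kb into its gene (H3K23su midpoint) scored 3.65 and 4.51 for H3K23su, and 5.17 and 4.41 for H3K27ac. The ABCG2 region 13.2 kb into its gene scored 4.96 and 3.55 for H3K23su, and 5.92 and 3.82 for H3K27ac, so its second HCT15-FR library was the weaker for both. In ABCC2, whose TSS peaks were Pa-only, the regions 56.3 and 67.3 kb into the gene were FR-only in both marks, the second with H3K27ac scores of 8.26 and 5.42. The H3K27ac region at -21.9 kb from the ABCC2 start (10:101519690-101521396) was Pa-only, with scores of 5.68 and 6.44, and H3K23su was shared there. It was the Pa-only H3K27ac region with the highest rank.

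The remaining region that was Pa-only in both marks lay 27.6 kb upstream of the ABCB1 canonical start, in an intron of the longer ABCB1 transcripts (H3K23su, 7:87257189-87258435). It scored 5.31 and 4.77 for H3K23su and 4.54 and 4.61 for H3K27ac in HCT15-Pa and was the Pa-only H3K23su region with the highest rank. It covered the start of RUNDC3B, a gene on the other strand inside ABCB1, at 7:87257714, so the peak cannot be assigned to ABCB1 rather than RUNDC3B.

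For 6 of these regions 200 bases are shown, on the strand of the gene. They are the central bases of the region or, where it was FR-only in both marks, of the overlap of the 2 marks' regions. The distances in the labels are those of the regions, so the centre of such a window can lie beside them. The 6 are FR-only regions named above with a high rank in at least 1 mark or with an AP-1 motif, and the Pa-only region upstream of ABCC2. ABCC5 +50.2 kb ranked high for H3K27ac only. Its weaker H3K23su peak, at the 11.2 percentile, ranked lowest among those of the 24 FR-only H3K23su regions. Capitals mark an AP-1 motif (TGANTCA, either strand), and none overlapped another.
ABCC5 +50.2 kb, FR-only in both marks, chr3:183685395-183685594, minus strand: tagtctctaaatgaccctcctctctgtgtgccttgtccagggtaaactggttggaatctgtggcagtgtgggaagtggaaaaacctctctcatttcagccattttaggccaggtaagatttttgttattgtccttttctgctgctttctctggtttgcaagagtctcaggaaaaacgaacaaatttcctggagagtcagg
ABCC5 +92.8 kb, FR-only for H3K23su, chr3:183642817-183643016, minus strand: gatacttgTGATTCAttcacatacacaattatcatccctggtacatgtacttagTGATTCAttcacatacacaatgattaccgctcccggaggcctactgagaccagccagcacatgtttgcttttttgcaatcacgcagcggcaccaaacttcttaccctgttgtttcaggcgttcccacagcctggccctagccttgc
ABCC4 +177 kb, FR-only for H3K27ac, chr13:95776141-95776340, minus strand: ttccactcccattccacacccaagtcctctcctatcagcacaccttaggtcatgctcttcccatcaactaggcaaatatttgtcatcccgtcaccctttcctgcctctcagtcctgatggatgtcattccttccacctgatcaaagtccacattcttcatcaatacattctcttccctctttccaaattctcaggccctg
ABCC4 +201 kb, FR-only in both marks, chr13:95752893-95753092, minus strand: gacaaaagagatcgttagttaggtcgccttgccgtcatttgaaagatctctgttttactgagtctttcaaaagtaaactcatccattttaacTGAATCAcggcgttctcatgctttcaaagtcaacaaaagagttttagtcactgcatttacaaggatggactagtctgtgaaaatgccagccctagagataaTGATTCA
ABCC10 +8.91 kb, FR-only in both marks, chr6:43404259-43404458, plus strand: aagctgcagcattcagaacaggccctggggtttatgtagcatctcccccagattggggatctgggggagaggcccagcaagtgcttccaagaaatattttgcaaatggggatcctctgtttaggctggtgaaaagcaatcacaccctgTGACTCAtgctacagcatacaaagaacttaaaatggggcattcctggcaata
ABCC2 -21.9 kb, Pa-only for H3K27ac, chr10:101520443-101520642, plus strand: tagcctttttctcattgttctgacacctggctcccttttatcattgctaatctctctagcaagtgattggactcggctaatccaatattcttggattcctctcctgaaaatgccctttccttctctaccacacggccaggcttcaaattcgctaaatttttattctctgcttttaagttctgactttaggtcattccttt
The AP-1 letters were in 2 of the 12 windows that were FR-only in both marks (16.7%), those of ABCC4 +201 kb and ABCC10. They were in the central 200 bases of 9.41% of all H3K23su regions and 9.88% of all H3K27ac regions. Those windows were centred on the region of a single mark and the 12 on the overlap of both marks, so the shares are not strictly comparable. The ABCC10 motif lay outside the central 200 bases of its H3K23su region. The longest stretch that occurred more than once within a printed window was 22 bases in ABCC5 +92.8 kb and at most 9 in the other 5. Of the 12 windows, that of ABCC2 +56.3 kb, not printed, held a stretch of 73 bases more than once. It had 6 GC boxes and 79.5% G and C, and how well reads map there was not tested.

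The third comparison asked whether the marks covered more of each transporter locus in HCT15-FR. The covered length was longer in both HCT15-FR libraries than in both HCT15-Pa libraries at 6 of 8 loci for H3K23su, against 53.0% of all loci tested, and at 5 of 8 for H3K27ac, against 51.4%. It was shorter in both at 1 locus, ABCB1, for H3K23su (13.5% of loci) and at none for H3K27ac (14.0%). Within the gene body alone, 7 of 8 genes were longer in HCT15-FR for each mark, against 41.7% and 40.3% of genes, and 1 was shorter for H3K23su (13.6%) and none for H3K27ac (14.2%). The mean score of the peaks in a locus ranged over 4.45 to 6.5 in HCT15-Pa and 4.42 to 6.15 in HCT15-FR for H3K23su, and over 4.54 to 6.64 and 4.69 to 8.14 for H3K27ac.

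**Figure D4:**
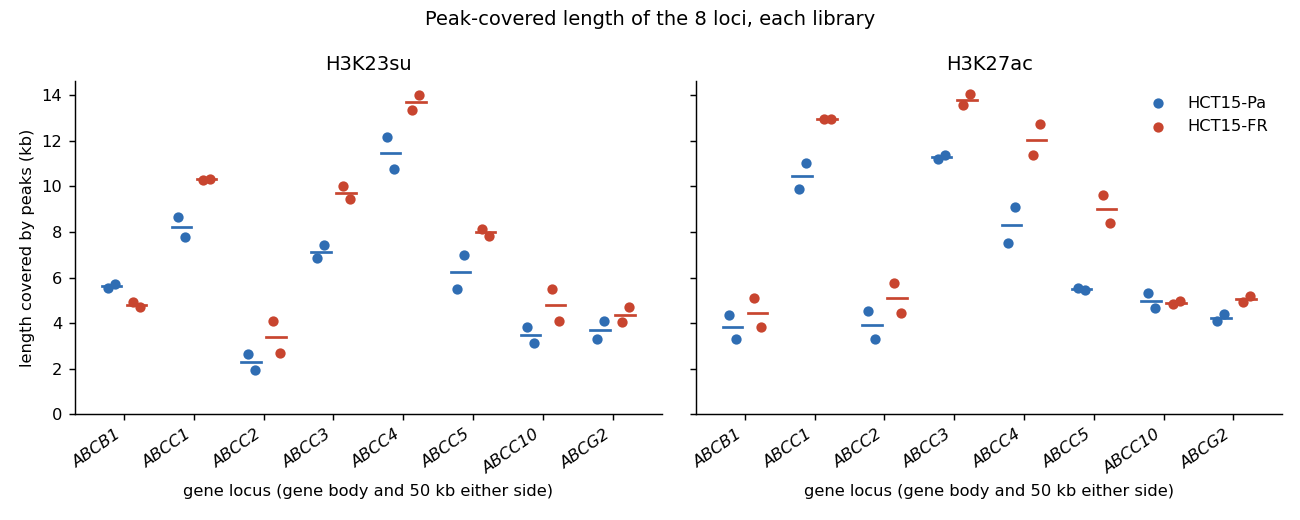
Length of each transporter locus covered by peaks (kb, from 0) in each library, HCT15-Pa blue and HCT15-FR red, with a bar at the mean of 2 replicates. ABCC5 and ABCC4 show the widest gap for H3K27ac (5.54 and 5.47 kb against 9.61 and 8.41 kb at ABCC5), and ABCB1 is the one locus with less H3K23su length in HCT15-FR.

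By limma over all loci with a peak in at least 2 of the 4 libraries, with Benjamini-Hochberg adjustment, 1 transporter locus was higher in HCT15-FR for H3K23su (ABCC3) and 4 were for H3K27ac (ABCC1, ABCC3, ABCC4 and ABCC5). The calls over all loci were 20.6% higher and 3.65% lower for H3K23su and 19.6% higher and 4.1% lower for H3K27ac. No transporter locus was called lower by limma, and none was lower at an unadjusted p under 0.05, while 4 of 8 were higher at that level for each mark, against 34.3% of all loci for H3K23su and 31.8% for H3K27ac (lower, 6.45% and 7.29%). The median difference over all loci was 0.24 for H3K23su and 0.18 for H3K27ac on the log2 scale, and that of the 8 loci was 0.33 and 0.29. Scaling the lengths to the same total per library moved the median of all loci to 0.02 and -0.04, and that of the 8 to 0.09 and 0.05. With that scaling, the higher share of all calls went from 84.9% to 51.5% for H3K23su and from 82.7% to 48.8% for H3K27ac. No transporter locus was then called for H3K23su, with 4.26% of loci called higher, and only ABCC5 for H3K27ac, with 6.23% called higher. At an unadjusted p under 0.05 by limma, 1 member, ABCB1, was lower and 0 were higher for H3K23su. In either direction, 5040 of 18280 loci had such a p. For H3K27ac 2 members were higher and 0 lower, and 5559 of 18905 loci had such a p. None of the 5 calls passed when loci without peaks were kept (adjusted p of 0.052 to 0.11 by limma), with differences equal to 2 decimals to those over the filtered loci, and in gene bodies alone only that of ABCC5 for H3K27ac did.

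**Figure D5:**
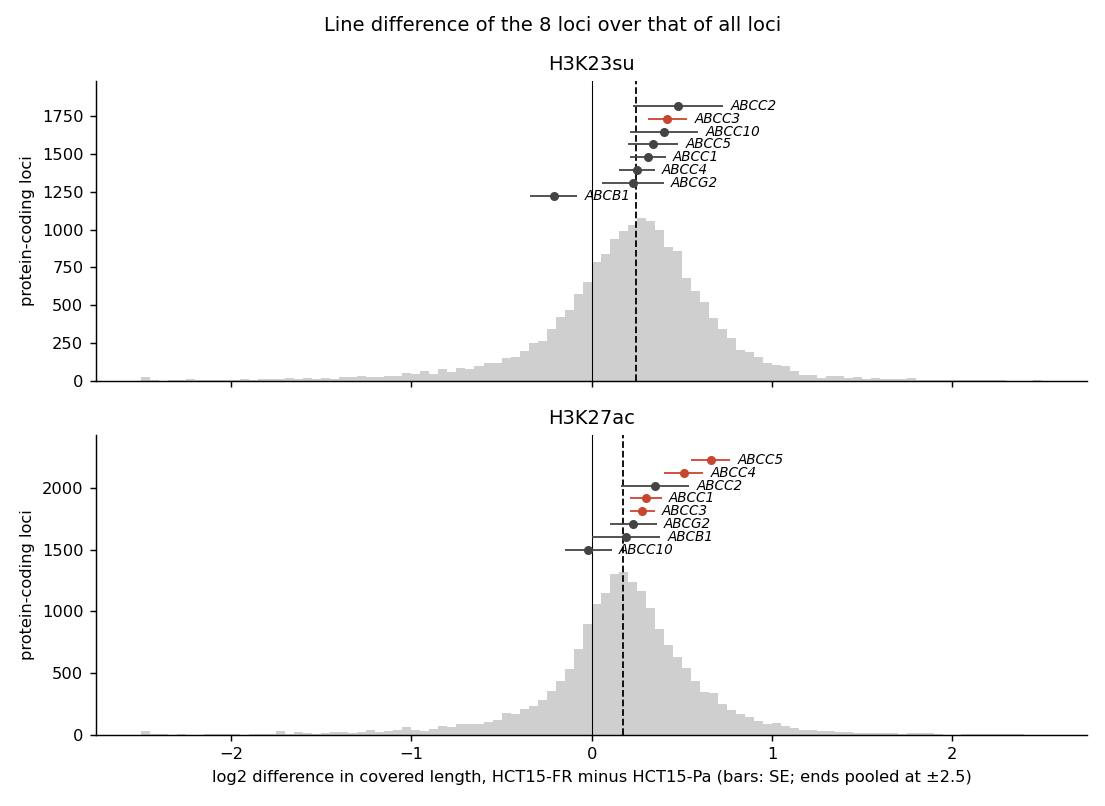
Histogram of the log2 difference in covered length (HCT15-FR minus HCT15-Pa) over all loci tested, with the 8 transporter loci above it as points with SE; red points passed the adjusted p of 0.05 and the dashed line is the median of all loci. ABCC5 stands at 0.66 for H3K27ac, against a median of 0.18, and ABCB1 at -0.21 for H3K23su, against 0.24.

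At ABCC5 the H3K27ac length was 5.54 and 5.47 kb in HCT15-Pa and 9.61 and 8.41 kb in HCT15-FR. The log2 difference was 0.66 (SE 0.11, adjusted p = 0.008 by limma), above that of 90.4% of loci, and 0.43 (adjusted p = 0.043 by limma) after scaling. In the gene body alone it went from 2.99 and 3.5 kb to 7.63 and 7.04 kb, or 3.31% to 7.48% of its length on average. H3K23su covered 5.49 and 6.99 kb in HCT15-Pa and 8.11 and 7.84 kb in HCT15-FR, a log2 difference of 0.34 (SE 0.14, adjusted p = 0.11 by limma) that did not pass. The lengths did not overlap between the lines in either mark. Without HCT15-FR replicate 1 the H3K27ac difference was 0.57 (adjusted p = 0.052 by limma), and without HCT15-Pa replicate 2 the H3K23su difference was 0.5 and passed (adjusted p = 0.037 by limma).

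At ABCC4 the H3K27ac length was 7.52 and 9.12 kb in HCT15-Pa and 11.4 and 12.7 kb in HCT15-FR, a log2 difference of 0.51 (SE 0.11, adjusted p = 0.019 by limma), but 0.28 (adjusted p = 0.16 by limma) after scaling. H3K23su covered 12.2 and 10.8 kb in HCT15-Pa and 13.4 and 14.0 kb in HCT15-FR, with a difference of 0.25 (adjusted p = 0.11 by limma), near the median of all loci. The lines did not overlap in either mark, and only the H3K27ac difference passed the test. It no longer passed without HCT15-FR replicate 2 (0.44, adjusted p = 0.093 by limma) or in the gene body alone (0.5, adjusted p = 0.096 by limma).

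ABCC3 was called for both marks. Its H3K23su length was 6.85 and 7.43 kb in HCT15-Pa and 10.0 and 9.46 kb in HCT15-FR, a log2 difference of 0.42 (SE 0.11, adjusted p = 0.032 by limma). Its H3K27ac length was 11.2 and 11.4 kb in HCT15-Pa and 13.6 and 14.1 kb in HCT15-FR, a difference of 0.28 (SE 0.07, adjusted p = 0.034 by limma). After scaling these were 0.18 (adjusted p = 0.32 by limma) and 0.04 (adjusted p = 0.76 by limma). ABCC3 was the most densely covered gene body, at 12.6% for H3K27ac in HCT15-Pa and 12.8% in HCT15-FR, and the H3K27ac difference of the locus lay in its flanks, which held 3.88 and 4.19 kb in HCT15-Pa and 6.53 and 6.43 kb in HCT15-FR. In the stronger 50% of each list the H3K27ac difference was 0.16 (adjusted p = 0.45 by limma). The flanks include the starts of ANKRD40 and LUC7L3. Both calls were lost without HCT15-Pa replicate 1, HCT15-FR replicate 1 or HCT15-FR replicate 2, at differences of 0.37, 0.38 and 0.46 (adjusted p of 0.07, 0.16 and 0.088 by limma) for H3K23su and 0.27, 0.3 and 0.25 (adjusted p of 0.056, 0.11 and 0.18 by limma) for H3K27ac. These lie close to the differences over all libraries, with SEs of 0.13, 0.18 and 0.18 for H3K23su and 0.1, 0.11 and 0.11 for H3K27ac.

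At ABCC1 the H3K27ac length was 9.88 and 11.0 kb in HCT15-Pa and 13.0 kb in each HCT15-FR library, a log2 difference of 0.3 (SE 0.09, adjusted p = 0.042 by limma), and 0.06 (adjusted p = 0.68 by limma) after scaling. H3K23su covered 8.65 and 7.79 kb in HCT15-Pa and 10.3 kb in each HCT15-FR library, a difference of 0.31 (adjusted p = 0.068 by limma). The lengths did not overlap between the lines in either mark. The H3K27ac call was lost without HCT15-Pa replicate 1 (0.22, adjusted p = 0.12 by limma), without either HCT15-FR replicate (0.3, adjusted p = 0.15 by limma), with equal list lengths (0.26, adjusted p = 0.068 by limma) and in the stronger 50% of each list (0.2, adjusted p = 0.38 by limma).

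ABCB1 was the locus with shorter H3K23su length in HCT15-FR. It held 5.54 and 5.71 kb in HCT15-Pa and 4.94 and 4.68 kb in HCT15-FR, a log2 difference of -0.21 (SE 0.13, adjusted p = 0.27 by limma) that did not pass, with 13.9% of loci at or below it. After scaling it was -0.44 (adjusted p = 0.08 by limma). For H3K27ac the same locus held 4.37 and 3.3 kb in HCT15-Pa and 5.09 and 3.81 kb in HCT15-FR, with the lines overlapping (0.19, adjusted p = 0.5 by limma, and -0.03 after scaling). The promoter of ABCB1 went the other way from its locus for H3K23su, being covered over more bases in both HCT15-FR libraries. The locus length includes the Pa-only region at the RUNDC3B start, which cannot be assigned to ABCB1. How much of the H3K23su difference lies in that region was not tested.

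The 3 remaining loci passed in neither mark. ABCC10, the shortest gene, had 3.84 and 3.12 kb of H3K23su in HCT15-Pa and 5.49 and 4.07 kb in HCT15-FR (0.4, adjusted p = 0.16 by limma), and 5.3 and 4.67 kb against 4.82 and 4.97 kb of H3K27ac (-0.02, adjusted p = 0.92 by limma). With 100 kb flanks its H3K23su difference was 0.45 and passed (adjusted p = 0.024 by limma), and in its gene body alone H3K27ac gave 0.71 (adjusted p = 0.063 by limma). ABCC2 had 2.64 and 1.92 kb of H3K23su against 4.1 and 2.7 kb (0.48, adjusted p = 0.19 by limma), and 4.51 and 3.32 kb of H3K27ac against 5.74 and 4.45 kb (0.35, adjusted p = 0.21 by limma). ABCG2 had 3.28 and 4.07 kb of H3K23su against 4.04 and 4.71 kb (0.23, adjusted p = 0.36 by limma), and 4.08 and 4.39 kb of H3K27ac against 4.91 and 5.2 kb (0.23, adjusted p = 0.23 by limma). Without HCT15-Pa replicate 1 the ABCC2 H3K27ac difference was 0.54 and passed (adjusted p = 0.041 by limma). Leaving out 1 library gave H3K23su differences of 0.21 (without HCT15-FR replicate 1) to 0.74 (without HCT15-FR replicate 2) for ABCC2, 0.2 to 0.6 for ABCC10 without the same libraries, and 0.09 (without HCT15-Pa replicate 1) to 0.36 (without HCT15-Pa replicate 2) for ABCG2, and none of these passed. The lines overlapped for ABCG2 in H3K23su and for ABCC10 and ABCC2 in H3K27ac.

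The fourth comparison asked whether the line difference of a locus was unlike between the 2 marks. Peaks of H3K27ac were called with the broad setting of the peak caller and no such setting is stated for H3K23su, so lengths of the marks were not made alike. By limma's interaction term over all 8 libraries, none of 18215 loci passed the adjusted threshold, 2402 had an unadjusted p under 0.05, and no transporter locus was among these. The values (H3K27ac difference minus H3K23su difference, log2) were 0.4 (SE 0.24, adjusted p = 0.52 by limma) for ABCB1, 0.32 (SE 0.18, adjusted p = 0.49 by limma) for ABCC5 and -0.42 (SE 0.24, adjusted p = 0.48 by limma) for ABCC10, and lay between -0.14 and 0.27 for the other 5. A difference between the marks was therefore not detectable here for any of the 8.

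The other 40 ABC genes, which include lipid transporters and the non-transporting ABCE and ABCF proteins, were read the same way. Of these, 17 had an H3K23su peak and 18 an H3K27ac peak in all 4 libraries, or 42.5% and 45.0%. ABCG4 was Pa-only for H3K23su, ABCA1, the cholesterol exporter, was Pa-only for H3K27ac, and ABCG1, its partner in cholesterol efflux, was FR-only for H3K27ac. No other ABC gene had the pattern of ABCC2 over the 8 libraries. By limma, 10 of 35 tested loci were higher in HCT15-FR and none lower for H3K23su, and 7 of 35 higher and none lower for H3K27ac, with medians of 0.33 and 0.2. Among those called for both marks were ABCG1, ABCG8, ABCC11 and TAP1, ABCG1 at 0.68 for H3K23su and 0.52 for H3K27ac and TAP1 at 1.58 and 0.75. ABCC11 is another drug efflux pump of the family, at 0.72 for each mark.

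Regulators known to act on transporter genes and carriers that take drugs up were counted beside them. Of 20 regulators, 13 had an H3K23su and 14 an H3K27ac TSS peak in all 4 libraries, none was FR-only or Pa-only, and 4 of 20 loci were higher for each mark, against 20.6% and 19.6% of all loci, with MYCN lower for H3K27ac (-0.95, adjusted p = 0.02 by limma). AHR, ESR1 and FOXO1 were higher for both marks. Of 18 uptake carriers, 8 and 10 had a TSS peak in all 4 libraries, and SLC22A7, an organic anion carrier, was Pa-only for H3K23su with H3K27ac in all 4. By limma 4 of 16 loci tested were higher for H3K23su and 4 of 18 for H3K27ac, and SLCO1B1 was lower for H3K27ac (-0.9, adjusted p = 0.03 by limma). SLC29A2, the nucleoside carrier ENT2, was higher for H3K23su at 0.64 and for H3K27ac at 0.46. Loci of 5 of 11 colon epithelium markers were higher in HCT15-FR for each mark and none lower, as were 2 and 4 of 6 leukocyte markers and 0 and 3 of 7 tested fibroblast markers, and their part in the transporter results was not tested.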

How the data were processed

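Peak lists of 8 CUT&Tag libraries were used. Per the study's methods, the authors aligned reads to hg19 with Bowtie2, removed unmapped, secondary and duplicate reads with SAMtools, kept uniquely mapped pairs, and called peaks in each library with MACS2, using its broad setting for H3K27ac. HOMER 4.10 and deepTools are also in the submitters' processing notes. Each deposited list gives 1 row per peak with its −log10 P, so reads, coverage and summits were not analysed here. No list exceeded the GRCh37 chromosome lengths.

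Genes and starts were those of GENCODE release 44 mapped to GRCh37, 1 canonical TSS per gene, in 20163 protein-coding genes. From the lists, presence in the 4 kb window around the TSS, and the length covered in that window, the gene body and locus (gene body and 50 kb either side) were computed with Python 3.11.15. Peaks that touched or overlapped were merged into regions over the 4 libraries of a mark. Peak calls made per library make covered length move with how much was called, so lengths were also scaled to the same total. limma 3.58.1 in R 4.3.3 (trend, two-sided, Benjamini-Hochberg over all loci, threshold 0.05) was fitted to log2(covered bp + 500), whose pseudocount understates changes of short lengths. On simulated lengths with 2-fold changes, it recovered 70.0% of 200 changed loci for H3K23su and 80.9% of 199 for H3K27ac.

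The members and gene lists were chosen with earlier results of these data known. Named were all 8 members, ABC, regulator and uptake genes present in 1 line only at the TSS, and, in the loci, regions present in 1 line with both marks or ranked highest in their class. Marker genes and genes of the lists called by limma were named after their values were seen. Alternatives were the stronger 50% of peaks, equal list lengths, a common minimum score, other windows and pseudocounts, scaling, no filter, a replicate block and leaving out each library. Replicate numbers did not pair the samples.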

Additional observations from a re-analysis of the deposited data

Results flagged for a closer look

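In the ABCB1 gene body the unscaled covered lengths of the marks moved in opposite directions between the lines. H3K23su covered 4.64 and 5.1 kb in HCT15-Pa and 4.41 and 3.87 kb in HCT15-FR, below both parental libraries, whereas H3K27ac covered 2.93 and 2.62 kb in HCT15-Pa and 4.39 and 3.24 kb in HCT15-FR, above both. The H3K27ac line difference minus the H3K23su line difference was 1.77 kb. It was picked out because every library of one mark moved one way and every library of the other mark the opposite way. These lengths were not scaled to the same total, and HCT15-FR lists covered more of the genome. Over the locus the ABCB1 H3K27ac difference was 0.19 on the log2 scale, and -0.03 after scaling. For H3K23su it was -0.21, and -0.44 after scaling. The gene body includes the Pa-only region at the RUNDC3B start, which cannot be assigned to ABCB1. How many of all genes show such opposite lengths was not computed. A limma interaction over gene bodies, chosen after these lengths were seen, gave 0.6 on the log2 scale (SE 0.23, adjusted p = 0.41), which did not pass. The same fit gave 0.6 for ABCC5 (SE 0.17, adjusted p = 0.29) and -0.43 for ABCC3 (SE 0.15, adjusted p = 0.37), and these 3 had the unadjusted p under 0.05 among the 8 genes. Of all 14687 gene bodies tested, 1613 had such a p by limma, and none passed the adjusted threshold.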

How the results depend on the processing

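Of 126 comparisons of a count with its alternatives, 34 set 0 against 0, and 64 of the other 92 stayed within 1.5 times. In the stronger 50% of each list, 4 genes had an H3K23su TSS peak in all libraries, 4 H3K23su and 14 H3K27ac regions were FR-only, 6 H3K27ac regions were Pa-only and 2 loci were called higher for H3K27ac. With 50% of a region covered, 11 H3K23su regions were Pa-only. Leaving out 1 library gave 30 to 50 FR-only and 9 to 40 Pa-only H3K23su regions and 26 to 49 and 14 to 43 H3K27ac regions, fewer libraries being required. The H3K23su FR-only share stayed above that of the genome in each of these, by least without HCT15-FR replicate 2 (22.5% against 21.6%). The Pa-only share, below that of the genome for H3K23su, was above it without HCT15-Pa replicate 1 (21.7% against 20.3%), without HCT15-FR replicate 1 (9.04% against 7.69%) and with 50% of a region covered (5.47% against 4.69%), and for H3K27ac it went the other way without HCT15-Pa replicate 2 (18.9% against 20.3%) and with 50% covered (4.1% against 4.38%). Without 1 library, 7 to 7 genes had a TSS peak in all libraries of each mark. The loci called higher without 1 library numbered 0 (without HCT15-Pa replicate 1, HCT15-FR replicate 1 or HCT15-FR replicate 2) to 2 (without HCT15-Pa replicate 2) for H3K23su, and 1 (without either HCT15-FR replicate) to 4 for H3K27ac. A lone library was assumed to vary like the other line. Gene bodies alone gave 0 higher for H3K23su and 1 for H3K27ac, loci with 100 kb flanks 2 for H3K23su, scaling 0 and 1, and no filter 0 and 0. The direction turned for the H3K27ac difference of ABCC10 without HCT15-Pa replicate 1 (0.06, the 4 such values running from -0.11 to 0.06), in the gene body (0.71) and with 100 kb flanks (0.01), for that of ABCB1 in the stronger 50% (-0.43) and after scaling (-0.03), and for the ABCG2 difference between marks in gene bodies (-0.02). The cause was not tested.

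Same-numbered replicates did not deviate together (r = 0.002 for H3K23su and 0.02 for H3K27ac, between the 2 replicate differences across genes, which are not independent replicates). With the replicate block, 1 locus was called higher for H3K23su and 3 for H3K27ac, ABCC1 giving 0.3 (adjusted p = 0.051 by limma), and over all loci 4648 were higher for H3K23su against 3760 without it. The block changed no other call. Scores depend on depth, which the peak lists do not hold, so a missing peak is not evidence of a missing mark.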
